A study of Mus musculus with 16 samples.

Results

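Productive T cell receptor β (TCRβ) rearrangements with a CDR3 of 33 nucleotides or less, 11 amino acids or fewer, made up 5976 of the 126344 productive unique rearrangements of 16 mice, or 4.73%. They were chosen by 2 columns of each mouse's table, the in-frame call and the CDR3 length, and no abundance was used. They carried 19061 of 526888 productive templates, or 3.62%, and encoded 3889 different CDR3 amino acid sequences. A rearrangement is 1 distinct nucleotide sequence in 1 mouse, and a template is a starting molecule as counted by the sequencing service. The productive rearrangements of 36 to 48 nucleotides served for comparison, and numbered 115321. The remaining 5047 were of 51 nucleotides or more.

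The T cells came from subcutaneous KPC-Luc tumours, a mouse pancreatic cancer line carrying luciferase, in female C57BL/6 mice of 8 to 10 weeks. All 16 mice carried the tumour and received both a peptide and an antibody for 10 days from day 6 or 7 after implantation, with 10 µg of peptide every day and 200 µg of antibody every 3 days, and tumours were taken at day 21. Control mice were given a scrambled peptide with an isotype IgG. ANT008 mice received the VIP-R antagonist peptide ANT008, which blocks receptors for vasoactive intestinal peptide, with IgG. Anti-PD-1 mice received scrambled peptide with the anti-PD-1 antibody, and combination mice received ANT008 with anti-PD-1. Each group had 4 mice, numbered as replicates 1 to 4. The paper describes T cell enrichment on CD90.2 magnetic beads, to a purity of 80 to 85%, under its gene expression assay. Its TCR sequencing methods do not restate this purity. There was no split into CD4+ and CD8+ cells, and the files hold only TCRβ rearrangements, so other T cell markers could not be checked. A single cell line was implanted, and KPC-Luc cells express a foreign protein, luciferase. The shallowest (7180 productive templates) and the deepest mouse (72588) were both in the anti-PD-1 group, as replicates 4 and 3, and the number of short rearrangements from 125 to 643 per mouse. The sources name both RNA and DNA as the starting material, so more cells of a clone and more TCRβ molecules per cell cannot be told apart.

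The TCRβ chain is assembled in the thymus by joining a V, a D and a J gene. Nucleases trim the gene ends and the enzyme terminal deoxynucleotidyl transferase adds random nucleotides, called N insertions, at both joints. The joined stretch encodes the CDR3 loop, which touches the peptide held by the MHC molecule, and its length follows from the germline ends, the trimming and the insertions. Short loops therefore arise from joins with heavy trimming, few insertions, or gene segments with short ends.

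Sequences of 10 short CDR3s are shown because they span the largest and the most shared ones. Each is the nucleotide rearrangement with the most templates, read from the conserved cysteine codon and ending 1 codon before the last CDR3 residue, since the deposited window stops there. Capitals mark N insertions. The first 6 are the most frequent short rearrangements of any mouse, and the last 4 are among the 5 CDR3s found in the most mice.
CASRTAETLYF: tgtgccagcaggactgcagaaacgctgtat
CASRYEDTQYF: tgtgccagcagATacGaagacacccagtac
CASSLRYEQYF: tgtgctagcagtttaCggtatgaacagtac
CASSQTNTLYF: tgtgccagcagcCAgacaaacaccttgtac
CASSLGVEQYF: tgtgccagcagcttaggggTtgaacagtac
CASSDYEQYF: tgtgccagcagtgactatgaacagtac
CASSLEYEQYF: tgtgccagctctctcgaGtatgaacagtac
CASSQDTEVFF: tgtgccagcagccaagacacagaagtcttc
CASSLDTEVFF: tgtgccagcagcttagacacagaagtcttc
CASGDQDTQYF: tgtgccagcggtgatcaagacacccagtac

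The whole 87-nucleotide deposited window of the most frequent of these, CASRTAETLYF in combination replicate 2, is given to place the CDR3 in its V gene, here with the CDR3 in capitals and the upstream Trbv13-1 sequence in lower case.
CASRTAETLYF window: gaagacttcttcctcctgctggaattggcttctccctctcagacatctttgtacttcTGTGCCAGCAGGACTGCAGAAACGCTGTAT

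Most short CDR3s lay next to the limit. Of the 5976, 4576 (76.6%) were of 33 nucleotides, 1092 (18.3%) of 30, 206 of 27 and 102 of 24 or less, down to 9. Just outside the limit, 12416 rearrangements had 36 nucleotides. The short CDR3s began with the residues CAS in 79.4% of rearrangements and with CASS in 53.5%, against 87.5% and 70.8% at 36 to 48 nucleotides. V was unresolved in 20 and J in 66 short rearrangements. The plot of the length distribution shows the short class as the lower tail of the productive repertoire.

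**Figure D1:**
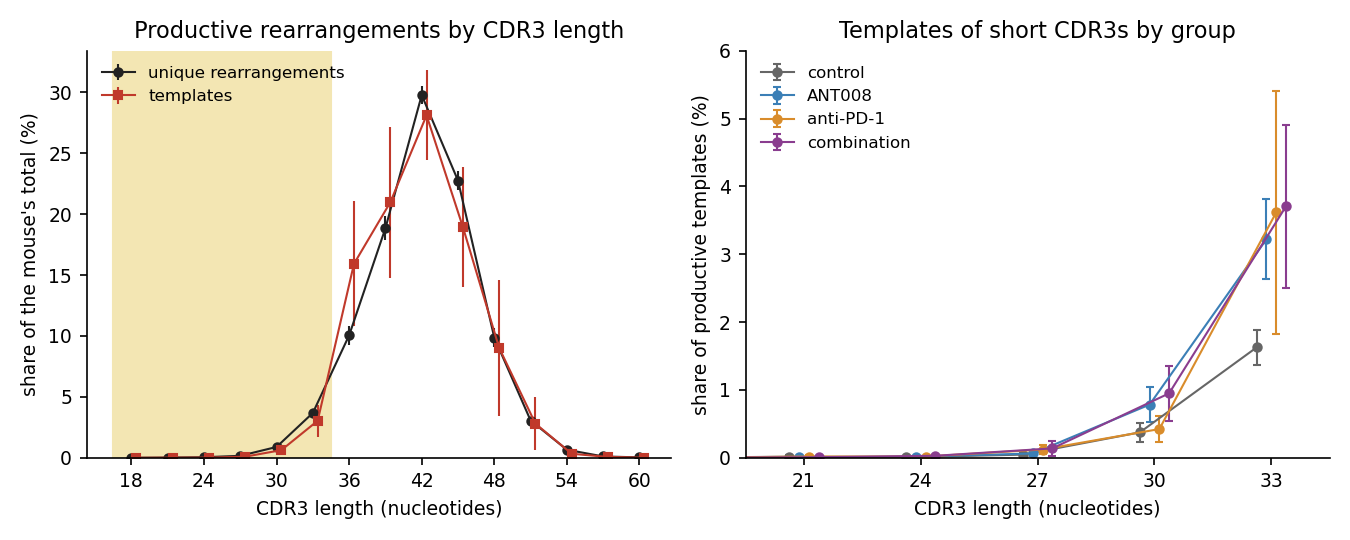
Left, the share of unique productive rearrangements (black circles) and of productive templates (red squares) at each CDR3 length in nucleotides, as means over 16 mice with SD bars and with the short class shaded. Right, the share of productive templates at each short length by treatment group (mean and SD, 4 mice each), where at 33 nucleotides the control mean was 1.63% and the treated means were 3.22% to 3.71%.

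The short class took a larger part of the tumour's TCRβ templates in treated mice than in control mice. The template share of short CDR3s was 1.83%, 2.31%, 2.42% and 1.75% in control replicates 1 to 4. It was 3.55%, 3.71%, 4.28% and 4.84% with ANT008, 4.27%, 6.55%, 2.44% and 3.57% with anti-PD-1, and 4.96%, 5.96%, 3.96% and 4.48% in the combination. All 12 treated mice lay above the highest control, although anti-PD-1 replicate 3 (2.436%) exceeded control replicate 3 (2.419%) only narrowly.

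Group means of the template share were 2.08% ± 0.337 (SD, n = 4) in control, 4.10% ± 0.588 with ANT008, 4.20% ± 1.74 with anti-PD-1 and 4.84% ± 0.850 in the combination. The differences from control were 2.02, 2.13 and 2.76 percentage points with a standard error of 0.724, or 1.97-, 2.02- and 2.33-fold. An exact permutation form of Dunnett's comparison over all 16 mice, two-sided, gave p = 0.0439 with ANT008, 0.0339 with anti-PD-1 and 0.00676 for the combination. Benjamini-Hochberg adjustment over the 6 comparisons of both shares gave 0.0659, 0.0659 and 0.0405, so the combination alone passed after adjustment. The exact p over each pair of groups alone was 0.0286, the smallest that 4 against 4 mice can give.

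The unadjusted template calls for ANT008 and anti-PD-1 lay near the threshold and were lost without some single mice. The ANT008 difference itself stayed between 1.77 and 2.20 points. Without 1 mouse at a time, the exact p for ANT008 ranged from 0.00490 to 0.117 and was above 0.05 in 12 of 16 cases, namely without any 1 of the 4 control and 4 ANT008 mice, anti-PD-1 replicate 1 or 4, or combination replicate 1 or 4. For anti-PD-1 it was 0.0692 and 0.0729 on leaving out control replicates 1 and 4, and 0.0679 and 0.0712 on leaving out replicates 1 and 2 of its own group. Without anti-PD-1 replicate 2 the anti-PD-1 difference fell to 1.34 points. For the combination the exact p stayed between 0.000389 and 0.0234. The template calls, taken here before adjustment, also depended on the length limit. At 36 nucleotides or less none passed, with differences of 2.64, 4.10 and 5.20 points and exact p of 0.831, 0.590 and 0.416, and at 30 or less the ANT008 and anti-PD-1 calls were lost (exact p = 0.153 and 0.852) while the combination passed (0.683 points, exact p = 0.0198).

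The share of short CDR3s among unique productive rearrangements, which counts each sequence once, overlapped between treated and control mice. It was 5.09%, 4.46%, 3.99% and 4.20% in control replicates 1 to 4, and 5.03%, 4.71%, 5.65% and 5.28% with ANT008. The values were 4.86%, 5.31%, 4.50% and 4.95% with anti-PD-1 and 4.86%, 4.70%, 4.68% and 4.88% in the combination. Control replicate 1 lay within the treated range.

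Means of the unique share were 4.43% ± 0.480 in control, 5.17% ± 0.397 with ANT008, 4.90% ± 0.332 with anti-PD-1 and 4.78% ± 0.105 in the combination (SD, n = 4 each). Differences from control were 0.734, 0.471 and 0.345 points (SE 0.252), with exact permutation p = 0.0319, 0.201 and 0.414, and 0.0659, 0.242 and 0.414 after adjustment over the 6 comparisons. The ANT008 p became 0.0553, 0.104 and 0.0853 on leaving out control replicates 2, 3 and 4, and 0.110 and 0.0767 on leaving out replicates 3 and 4 of its own group. The anti-PD-1 difference was 0.691 points with an exact p of 0.0238 without control replicate 1.

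**Figure D2:**
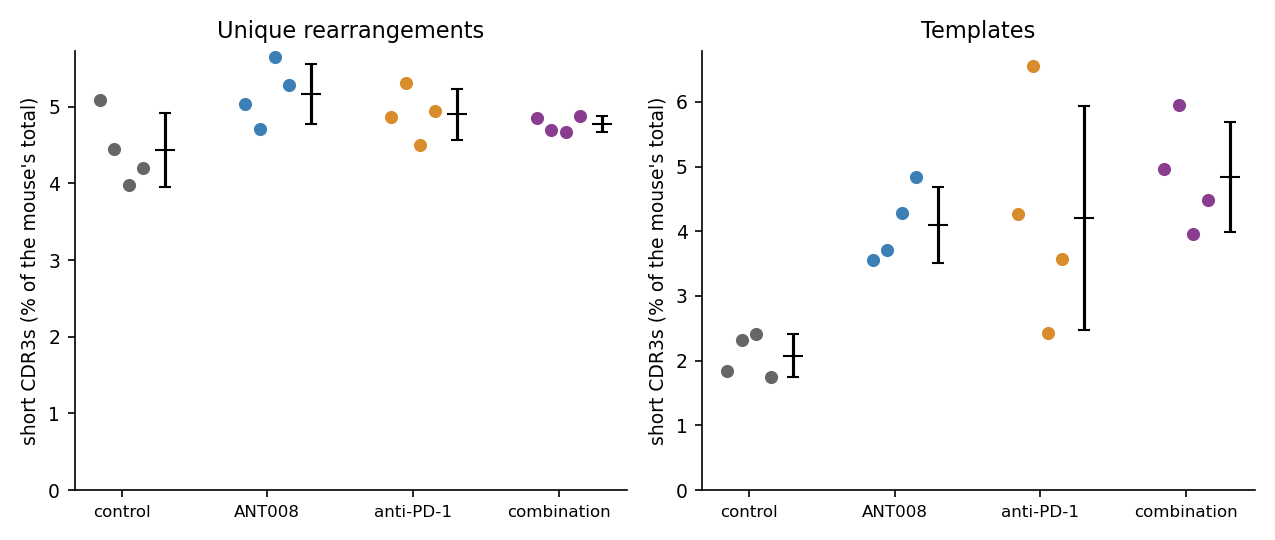
Share of short CDR3s (33 nucleotides or less) among unique productive rearrangements (left) and productive templates (right), in percent of each mouse's total; points are mice in replicate order and the bars are mean ± SD of 4 mice. The control templates (1.75% to 2.42%) lie below all 12 treated mice, while the unique shares overlap.

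Where the difference in template share sat by clone size was examined with measures chosen after the template shares had been seen, as 21 comparisons adjusted together. Rearrangements at 0.1% or more of a mouse's productive templates were counted as frequent. The number of frequent short rearrangements was 0, 2, 1 and 2 in control replicates 1 to 4. It was 8, 5, 5 and 8 with ANT008, 5, 9, 3 and 6 with anti-PD-1, and 8, 7, 7 and 5 in the combination, so no treated mouse overlapped with control.

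Pooled over mice, 5 of 342 frequent rearrangements were short in control (1.46%) and 76 of 1186 in treated mice (6.41%). As means of mice, short CDR3s made up 1.43% of frequent rearrangements in control, 6.49% with ANT008, 5.43% with anti-PD-1 and 7.36% in the combination. The exact permutation p was 0.00165, 0.00740 and 0.000476 (adjusted 0.0115, 0.0259 and 0.00999). Among all unique productive rearrangements the short share was 4.43% in control and 5.17%, 4.90% and 4.78% in the treated groups. The control value for frequent rearrangements thus lay below its class share, and further from it than the treated values, which lay above theirs. The frequent clones are a part of the same template measure, so these values describe where the template difference lies and are not independent support for it.

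By size, short rearrangements between 0.1% and 0.5% held 0.241% of templates in control and 0.944%, 0.849% and 1.17% with ANT008, anti-PD-1 and the combination (exact permutation p = 0.00993, 0.0228 and 0.00129, adjusted 0.0262, 0.0533 and 0.0115). Those at 0.5% or more held 0% in control and 0.658%, 1.09% and 0.889% in the treated groups, with exact p of 0.757, 0.347 and 0.524. Those below 0.1% held 1.84% in control and 2.50%, 2.27% and 2.78% in the treated groups, with exact p of 0.242, 0.556 and 0.0632. Counted only within rearrangements below 0.1%, the short share was 5.29% in control and 5.85%, 5.02% and 5.37% in the treated groups, with differences of 0.566, −0.272 and 0.0828 points (exact p = 0.329, 0.799 and 0.991).

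Templates in rearrangements at 0.5% or more, of any length, held 36.5% to 60.1% of templates in control mice, 29.3% to 46.2% with ANT008, 25.0% to 48.8% with anti-PD-1 and 19.8% to 45.6% in the combination. These ranges overlapped and were not tested. Without these rearrangements, the short template share differed from control by 1.60 points with ANT008, 0.795 with anti-PD-1 and 1.54 in the combination, with exact p of 0.00101, 0.0779 and 0.00141. Without the single most frequent short rearrangement of each mouse the differences were 1.69, 1.64 and 2.01 points. The mean CDR3 length weighted by templates was 41.9 nucleotides in control and 41.6, 40.8 and 41.5 in the treated groups, with exact p of 0.816, 0.117 and 0.780.

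**Figure D3:**
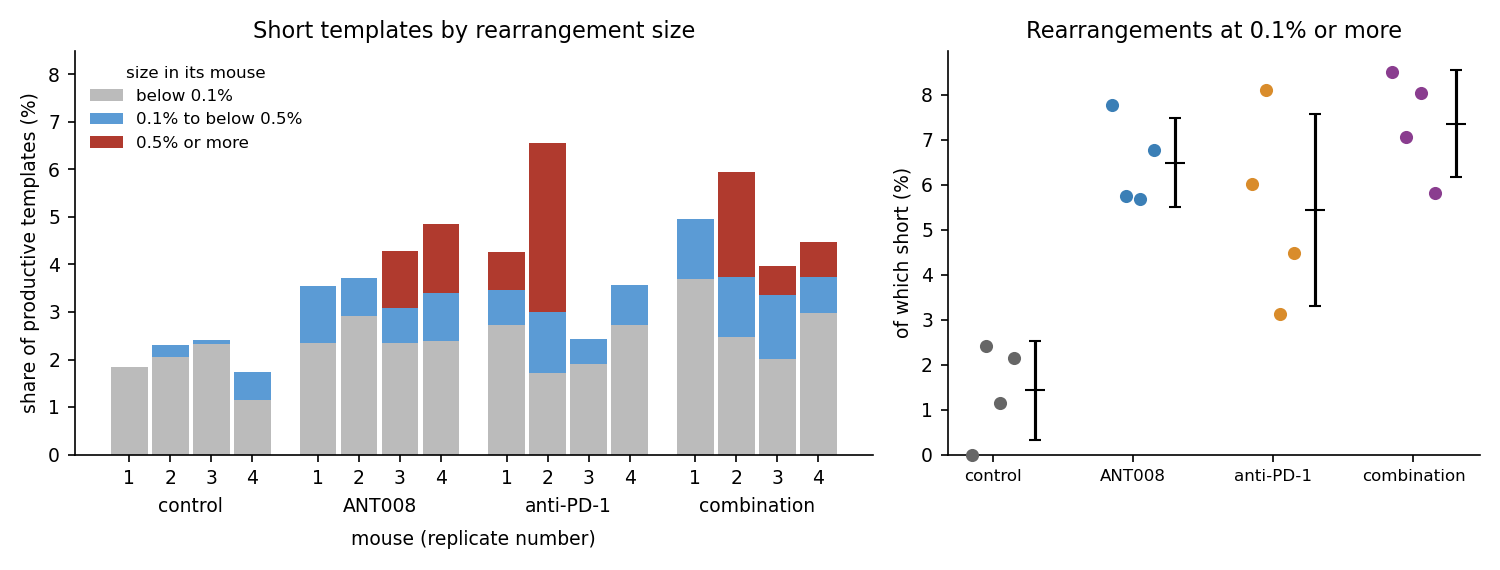
Left, the percent of productive templates held by short rearrangements in each mouse, stacked by the rearrangement's own share of the mouse's templates. Right, the percent of all rearrangements at 0.1% or more that were short; points are mice, bars are mean ± SD of 4 mice, and the control points (0% to 2.41%) lie below every treated mouse.

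Among single lengths, 12 from 24 to 57 nucleotides had enough data to be compared with control on their template share. With ANT008 and with anti-PD-1, 0 of 12 passed an exact p of 0.05 (0% of lengths tested). In the combination 1 of 12 did (8.33%), the short length of 30 nucleotides, which held 0.376% ± 0.137 of templates in control and 0.950% ± 0.407 in the combination (exact permutation p = 0.0274, unadjusted over lengths). At 33 nucleotides the exact p was 0.155, 0.0660 and 0.0543 for the 3 groups. No short length is read as standing apart from this.

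Out-of-frame rearrangements, which encode no receptor, were read from the same mice as a background. Their CDR3 lengths do not fall on codon steps, so 34 nucleotides or less was taken as short. The short share of out-of-frame unique rearrangements was 5.56%, 5.56%, 6.61% and 6.48% in control, ANT008, anti-PD-1 and combination mice, with differences from control of −0.000367, 1.05 and 0.924 points (exact permutation p = 1.00, 0.0101 and 0.0214). For out-of-frame templates the differences were 1.51, 3.29 and 4.69 points with exact p of 0.797, 0.266 and 0.0732. The out-of-frame share of unique rearrangements was thus higher than in control in the anti-PD-1 and combination groups, where the productive unique share did not pass the test. The within-mouse difference, productive minus out-of-frame, departed from control by 0.734, −0.575 and −0.578 points in the 3 groups, with exact permutation p of 0.241, 0.423 and 0.419.

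Within mice, the productive short share was lower than the out-of-frame one, at 4.82% against 6.05%. The difference was −1.23 ± 0.772 points (SD, n = 16 mice), lower in 15 of 16 mice, with an exact sign-flip permutation p of 0.000153. The direction rested on the out-of-frame limit, since at 33 nucleotides out of frame it was 1.12 points the other way.

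The most frequent short rearrangements all came from treated mice. Of the 12 highest, 0 were in control mice, 4 in ANT008, 5 in anti-PD-1 and 3 in the combination, by their percent in their own mouse. Of the 328 rearrangements at 0.5% or more in all mice, 11 were short, in 7 mice, with 0 of 95 in control (a count that allows up to 3.16%, for counting error only) and 11 of 233 in treated mice (4.72%). These counts pool the mice of a group and were not tested as such, and the comparison per mouse of templates at 0.5% or more, given above, did not pass in any group. Over all productive unique rearrangements 4.73% were short. The treated share of 4.72% thus lay at the share of the class, and the control count lay below it.

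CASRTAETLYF, from Trbv13-1 and Trbj2-3, was the largest. It had 542 templates in combination replicate 2, which is 2.21% (95% Wilson interval 2.03 to 2.40%), ranked 6 in its mouse and found in no other mouse. As its sequence above shows, it has no N insertion. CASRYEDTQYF (Trbv14, Trbj2-5) reached 1.44% and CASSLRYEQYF (Trbv29, Trbj2-7) 1.39%, both in anti-PD-1 replicate 2.

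The next were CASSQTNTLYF at 0.847% in ANT008 replicate 4, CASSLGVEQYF at 0.814% in anti-PD-1 replicate 1 and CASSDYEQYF at 0.746% in combination replicate 4. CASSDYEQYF, of 30 nucleotides and Trbv13-1 with Trbj2-7, also lacked insertions, and was found in 3 other mice as an amino acid sequence with other nucleotides. The other 6 lay between 0.434% and 0.709%. Of the 12, 10 were private to 1 mouse as nucleotide sequences, 6 used Trbj2-7, 3 had 30 nucleotides and 2 had no insertion. The interval covers counting error only, since templates need not be separate cells.

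The most shared short CDR3 was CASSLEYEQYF, found in all 16 mice. It was encoded by 28 different rearrangements with 701 templates, 91.9% of them from Trbv12-1 with Trbj2-7, and its share ran from 0.00867% (ANT008 replicate 3) to 0.489% (combination replicate 4), with a median of 0.0773%. Its most used rearrangement, shown above, carries 1 N insertion and was found in 9 mice. The others of the 8 most shared followed in 11 to 15 mice. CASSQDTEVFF (15 mice, mainly Trbv5 with Trbj1-1), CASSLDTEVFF (14) and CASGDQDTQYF (13, Trbv13-2 with Trbj2-5) all had a most used rearrangement with no insertion at all, as did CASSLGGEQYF, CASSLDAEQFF, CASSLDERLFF and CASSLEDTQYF. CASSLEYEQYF held 0.0656%, 0.101%, 0.113% and 0.239% on average in control, ANT008, anti-PD-1 and combination mice, and its shares overlapped between groups.

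At the 33-nucleotide limit, short CDR3s were found in other mice more often than the longer ones. Of the 3889 short sequences 669 (17.2%) were found in 2 or more mice, against 11006 of 84344 (13.0%) at 36 to 48 nucleotides; 146 were in 4 or more mice and 20 in 8 or more. Per mouse, 39.6% ± 3.77 of short CDR3s against 30.98% ± 2.53 at 36 to 48 were found in another mouse. The difference of 8.62 ± 3.36 points (SD, n = 16) was positive in 16 of 16 mice, with an exact sign-flip permutation p of 3.05e-05, the smallest that 16 mice can give. With short taken as 30 nucleotides or less the difference was 1.38 points and did not pass (exact sign-flip permutation p = 0.421). Weighted by templates it was −5.46 points (exact p = 0.0826). Identical nucleotide sequences were shared for 257 of 5595 short rearrangements (4.59%) and 2838 of 111528 (2.54%) at 36 to 48 nucleotides. The most widely shared ones of either class were in 12 mice.

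A part of the short rearrangements shared the CDR3 nucleotides of a more frequent rearrangement in the same mouse, differing only in the upstream V window. These were 360 of 5976 (6.02%), 94.4% of them with a single template, against 5.19% at 36 to 48 nucleotides. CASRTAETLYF in combination replicate 2 had 11 such partners with 12 templates over 5 V genes. Their origin was not tested. Counting each CDR3 nucleotide sequence once per mouse left the ANT008 unique share at 0.554 points over control with an exact permutation p of 0.113, against 0.0319 before adjustment when every rearrangement was counted.

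Short rearrangements held fewer templates each. Templates per rearrangement were 3.30 ± 1.20 for short and 4.58 ± 1.77 for 36 to 48 nucleotides (SD, n = 16 mice), a mean log2 ratio of −0.46 that was negative in 13 of 16 mice (exact sign-flip permutation p = 0.00333). By group the ratio of short to longer was 0.450 in control, 0.770 with ANT008, 0.785 with anti-PD-1 and 1.02 in the combination. Short templates per rearrangement were 2.73, 3.39, 3.59 and 3.49 in the 4 groups, while those at 36 to 48 nucleotides were 6.29, 4.35, 4.28 and 3.40, so the ratio moved on both sides. The log2 ratio exceeded control by 0.78 with ANT008, 0.80 with anti-PD-1 and 1.18 in the combination (exact permutation p = 0.0226, 0.0187 and 0.00135). Over the 33 such comparisons of groups the adjusted values were 0.249, 0.249 and 0.0447. This ratio is built from the same templates as the short template share, so its group differences are not independent support for it.

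Single-template rearrangements were rarer among short CDR3s, at 65.3% against 73.6%, and lower in 16 of 16 mice (exact sign-flip permutation p = 3.05e-05). The share at 0.5% or more was 0.252% of short and 0.371% of longer rearrangements, a difference whose exact sign-flip p was 0.297, with 7 mice higher and 9 lower. Each short CDR3 was encoded by 1.14 rearrangements per mouse against 1.10 at 36 to 48 nucleotides, higher in 13 of 16 mice (log2 0.04, exact sign-flip permutation p = 0.00186). In control mice the means were 1.11 in both classes. The call was lost at 30 nucleotides or less (log2 0.0027, exact p = 0.889) and without single-template rearrangements (0.013, exact p = 0.204).

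The length difference itself can be split by origin of the nucleotides, and is given as a description because these parts add up to the length that chose the members. Short CDR3s averaged 12.1 nucleotides from V, 0.833 inserted between V and D, 3.18 from D, 0.926 inserted between D and J, and 15.0 from J. CDR3s of 36 to 48 nucleotides had 13.7, 1.82, 6.71, 1.69 and 18.3. D accounted for 35.1% of the length difference, J for 32.1%, V for 15.4%, and the insertions for 17.4%. Short CDR3s had no N insertion in 30.7% of rearrangements against 8.12%, and lost 4.03 nucleotides from V and 5.25 from J against 2.61 and 2.78.

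The D gene was unresolved in 52.7% of short and 17.5% of longer rearrangements, and no D segment was found in 21.9% and 1.20%. Of those with a resolved D gene, the first D gene took 66.1% of short rearrangements against 52.6%. Frequent short rearrangements (0.1% or more, 81 in all) and the other 5895 were alike in insertion-free share, at 32.1% and 30.7%, while 49.4% and 39.1% used Trbj2-7. Their amino acid sequence was found in another mouse for 55.6% and 42.6%. For frequent rearrangements of 36 to 48 nucleotides it was 52.1%. These size classes were described without a test.

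**Figure D4:**
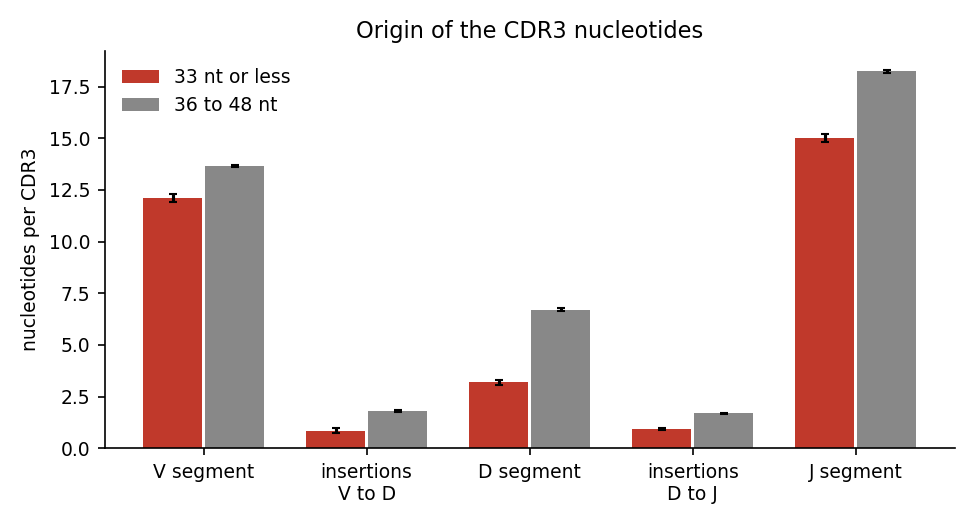
Mean number of CDR3 nucleotides contributed by each source, from V to J, in short CDR3s (red) and in CDR3s of 36 to 48 nucleotides (grey); bars are means over 16 mice and error bars are SD. The largest gaps are in the D segment (3.18 against 6.71 nucleotides) and the J segment (15.0 against 18.3).

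Each J gene adds the last part of the CDR3, and short CDR3s drew mainly on 2 of them. Trbj2-7, whose untrimmed end gives 19 nucleotides to the CDR3, took 39.4% ± 3.08 of short rearrangements per mouse against 20.8% ± 0.879 at 36 to 48 nucleotides, and Trbj1-1 (20 nucleotides) took 17.7% ± 1.77 against 8.60% ± 0.278. Their log2 ratios were 0.91 ± 0.03 and 1.07 ± 0.05 (SE). By edgeR's quasi-likelihood test, 12 of 13 J genes tested were called at an adjusted p of 0.05 (92.3%), 2 higher and 10 lower in short CDR3s. J length is part of CDR3 length, so these calls describe the class and support nothing further.

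The most lowered J genes were Trbj2-2 (1.63% against 5.58%, log2 −1.89), Trbj1-6 (1.22% against 3.10%, −1.41), whose end is the longest at 25 nucleotides, and Trbj2-3 (3.41% against 8.42%, −1.34). The rest ran from −1.02 for Trbj1-3 to −0.21 for Trbj2-5, with Trbj1-4 at −0.85, Trbj2-1 at −0.80, Trbj2-4 at −0.74, Trbj1-2 at −0.30 and Trbj1-5 at −0.27. The untrimmed ends of Trbj1-2 and Trbj2-6 give 20 nucleotides, the same as that of Trbj1-1. Trbj2-6 had 0 short and 12 longer rearrangements and was not called by edgeR. These values are shares of a class total. Scaled instead by the median gene, DESeq2 called 6 higher and 4 lower, and TMM factors gave 5 and 6. The 6 include Trbj2-6 (log2 3.20), which had 0 short rearrangements, so that call is not read as higher use. The median log2 over J genes was −0.80 on shares and −0.07 with DESeq2. Trbj1-2, Trbj1-5 and Trbj2-5 had log2 values of 0.36, 0.39 and 0.49 with DESeq2, so their direction depended on the scaling, while Trbj2-7, Trbj1-1, Trbj2-2, Trbj1-6 and Trbj2-3 kept theirs. The Trbj1-5 adjusted p by edgeR was 0.0172, and 0.0611 without control replicate 2.

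Of the V genes, 13 of 26 tested were called by edgeR (50%), 9 higher and 4 lower in short CDR3s. DESeq2 called 10, 3 higher and 7 lower, and TMM 13, 7 higher and 6 lower. Trbv20, with a germline end of 14 nucleotides, took 6.40% ± 1.15 of short rearrangements against 2.90% ± 0.399 (log2 1.14 ± 0.10 SE). Trbv30, also with 14, had 42 short rearrangements and a log2 of 1.60. A further gene with 14, Trbv31, named here after its values were seen, had a log2 of 0.23 and did not pass (edgeR adjusted p = 0.0962).

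Trbv27 had a log2 of 3.33 but only 5 short and 6 longer rearrangements. Trbv15 (0.42), Trbv13-1 (0.32), Trbv13-2 (0.29), Trbv26 (0.28), Trbv13-3 (0.27) and Trbv29 (0.24) were also higher. The lowered V genes were Trbv2 (2.17% against 4.80%, log2 −1.33), Trbv5 (2.70% against 6.75%, −1.33), Trbv1 (−0.69) and Trbv12-1 (−0.54). The germline end of Trbv12-1 has 15 nucleotides. Those of Trbv2, Trbv5 and Trbv1 have 17, as do those of Trbv15, Trbv26 and Trbv29, which were higher. Trbv3 (7.61% against 7.96%, log2 −0.13) and Trbv19 (7.75% against 7.97%, −0.00) did not pass the test. The Trbv26 call (edgeR adjusted p = 0.0302) was lost without control replicate 2 (0.0732), control replicate 4 (0.0536), ANT008 replicate 2 (0.0669) or ANT008 replicate 4 (0.0778). The Trbv29 call (0.0188) was lost without combination replicate 1 (0.160) or combination replicate 4 (0.0523), and Trbv3 passed without ANT008 replicate 4 (0.0416). With DESeq2, Trbv13-1, Trbv13-2, Trbv13-3, Trbv15, Trbv26 and Trbv29 did not pass, and Trbv3 did (log2 −0.27, adjusted p = 0.0213). Germline V length is part of CDR3 length as well.

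**Figure D5:**
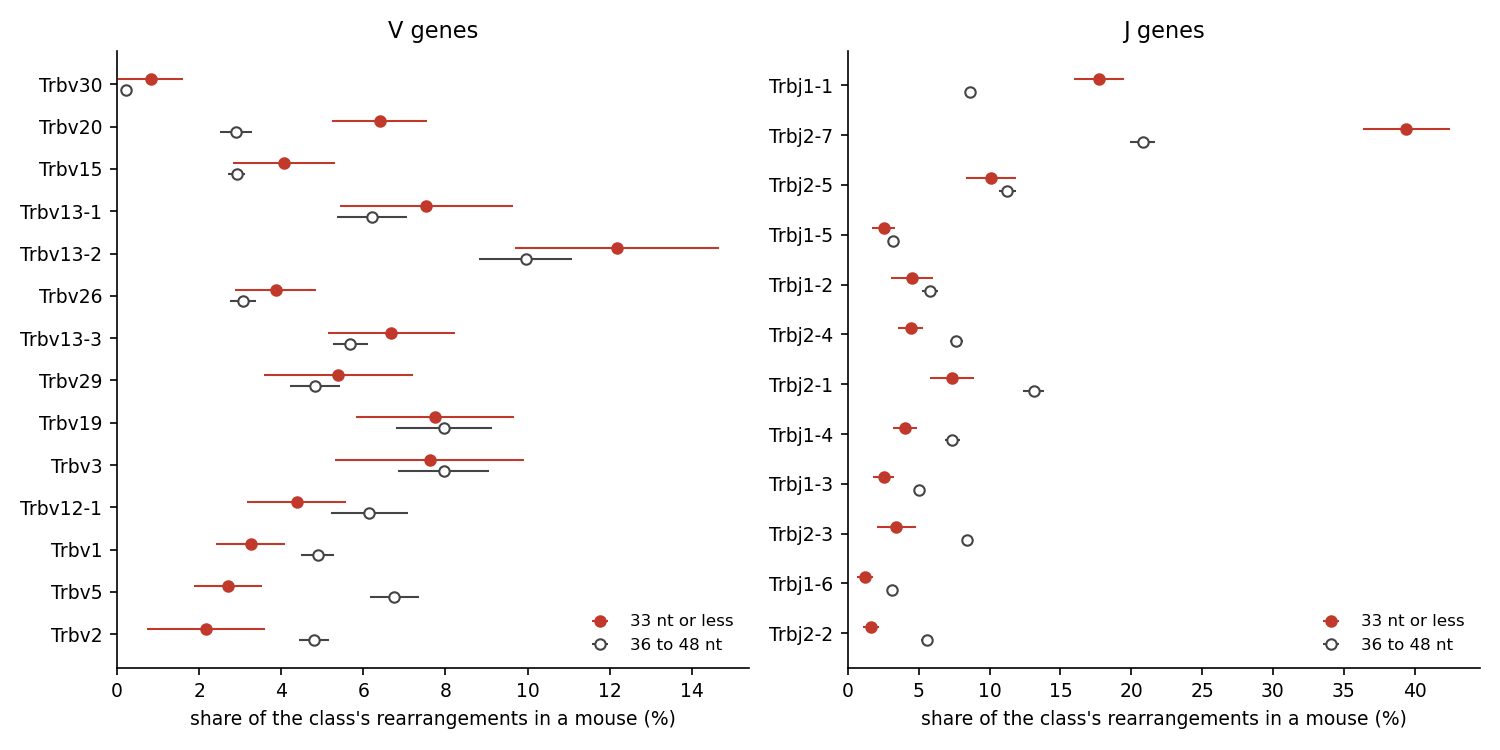
Percent of unique rearrangements using each named V gene (left) and each J gene (right) in short CDR3s (filled red circles) and in CDR3s of 36 to 48 nucleotides (open circles), as means over 16 mice with SD bars; genes are ordered by fitted log2 ratio, and Trbv27 and Trbj2-6, with few rearrangements, are not drawn. Trbj2-7 (39.4% against 20.8%) and Trbj1-1 (17.7% against 8.60%) stand apart on the higher side.

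V gene use within the short class was compared between treatments. Of 24 V genes of short rearrangements, 0 were called by edgeR in the ANT008, anti-PD-1 and combination comparisons, as were 0 of the 72 V gene and length class entries in each comparison (0% called). DESeq2 called 0 in each. At an unadjusted p of 0.05, edgeR gave 0, 1 and 3 of the 24, against 4.17%, 6.94% and 5.56% of all 72 entries.

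Public short CDR3s, found in at least 4 mice, were tested for templates across 2188 public sequences of any length. Of the 146 short ones, 0 were called by edgeR in any of the 3 comparisons (0% of all called), and DESeq2 called 0 and gave 0 at an unadjusted p of 0.05. Unadjusted, edgeR gave 16, 20 and 28 of the 146 (10.96%, 13.7% and 19.2%) in the ANT008, anti-PD-1 and combination comparisons. Of all public sequences the unadjusted shares were 11.6%, 11.6% and 14.7%, and no single public short CDR3 is read as changed.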

How the data were processed

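TCRβ CDR3 regions of T cells from 16 mice were sequenced with the immunoSEQ mouse TCRβ survey assay. The deposited files give template counts per rearrangement, which the authors' sequencing service estimated as whole numbers after correcting primer amplification with a synthetic repertoire, along with CDR3 length, V, D and J calls, deletions and insertions in nucleotides. The aligner and genome build are not given in the sources used here, and the labels name RNA where the study's text also names DNA. Each file was 1 mouse, and groups came from the sample titles. Gene names were matched to RefSeq symbols (33 of 33 V, 14 of 14 J).

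Productive rows were those called in frame. Shares were computed per mouse, since rearrangements of a mouse are not replicates. Treatments were compared with control by an exact permutation form of Dunnett's comparison over 10510500 assignments, and classes within mice by an exact sign-flip permutation test, all two-sided at 0.05. Gene and public CDR3 counts were tested with edgeR 4.0.16 (quasi-likelihood, R 4.3.3). Library size was fixed at the class or mouse total, and the mouse was a block between classes. Gene entries needed a total of at least 10, a limit that was not applied to public CDR3s. DESeq2 1.42.0 was an alternative. Nothing in the labels says that mice of 1 number shared a litter or cage. Other analyses used Python 3.11.15, numpy 2.4.6, pandas 2.3.3 and scipy 1.17.1, and scripts were tested on simulated data. Depth was 7180 to 72588 productive templates per mouse, so a single template was a different share in each mouse.

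Alternatives were other length limits, CDR3 amino acid counting, equal depth, single-template removal, other scalings, template weights, replicate number as a block and leaving out each mouse. The out-of-frame, clone size and CDR3 nucleotide alternatives were added after seeing the data. The members and lists were chosen with earlier results of these data known. Named V genes were the 8 most raised and 8 most lowered called genes and any with at least 5% of short rearrangements; named J genes were all those tested; named clones were the 8 most shared short CDR3s and the 12 with the highest share in 1 mouse.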

Additional observations from a re-analysis of the deposited data

Results flagged for a closer look

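Of 52 groups of 4 mice checked for a mouse far from the others, 5 had one, and chance gives about 1 in 20. For the log2 ratio of rearrangements per CDR3 between short and 36 to 48 nucleotides, control replicate 2 stood at 0.085, ANT008 replicate 3 at 0.116 and combination replicate 2 at 0.119. The excess of insertion-free rearrangements in short CDR3s was 30.2 percentage points in ANT008 replicate 1, and the excess of V deletions was 1.71 nucleotides in anti-PD-1 replicate 4.

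Before adjustment, groups differed in the within-mouse log2 ratio of templates per rearrangement, short over 36 to 48 nucleotides. It exceeded control by 0.776 with ANT008, 0.803 with anti-PD-1 and 1.18 in the combination (exact permutation p = 0.0226, 0.0187 and 0.00135). The adjusted values were 0.249, 0.249 and 0.0447, so the combination alone passed. This ratio uses the same templates as the short template share and is not independent of it. The log2 ratio of rearrangements per CDR3 exceeded control by 0.0742 in the combination (exact permutation p = 0.0419, adjusted 0.346). Of 33 such contrasts 4 had p below 0.05, and the lowest adjusted value was 0.0447.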

How the results depend on the processing

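Limits. A mean of 4 mice and unequal depth bound the precision, a single template counts as a rearrangement, and no cause was tested for any change listed here. The comparisons that answer a question of the design were repeated under alternatives. Of these values, 499 counted as unchanged, 43 lost the threshold call, 3 gained it, 6 changed direction and 1 count moved. Unchanged meant that a value kept its direction and side of the threshold. For counts of called genes or CDR3s it meant only a similar number called, whatever the direction. For single genes, 560 were unchanged, 30 lost the call, 3 gained it and 19 changed direction.

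For the unique share with ANT008, the difference was 0.734 points with an exact p of 0.0857 over the pair of groups alone and 0.0577 with the replicate number as a block, 0.171 at 30 nucleotides or less, 0.784 at 36 or less, 0.526 for unique CDR3 amino acid sequences, 0.522 without single-template rearrangements and 0.554 with 1 rearrangement per CDR3 nucleotide sequence. The ANT008 call was lost under each of these settings. At 36 nucleotides or less the combination difference was −0.238. Out of frame, the unique differences were −0.000367, 1.05 and 0.924 in the ANT008, anti-PD-1 and combination comparisons. The productive unique differences, without 1 mouse at a time, ran from 0.574 to 0.954, 0.322 to 0.691 and 0.196 to 0.566 in the same order.

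For the template share, 30 nucleotides or less gave 0.426 for ANT008 and 0.138 for anti-PD-1, and 36 or less gave 2.64, 4.10 and 5.20 in the 3 comparisons in the same order, with p above the threshold. ANT008 was 2.18 without single-template rearrangements, where its call was lost (exact permutation p = 0.0601). Without rearrangements at 0.5% or more anti-PD-1 was 0.795, and without those at 0.1% or more the 3 values were 0.566, −0.272 and 0.0828. Out of frame they were 1.51, 3.29 and 4.69. The productive template differences, without 1 mouse at a time, ran from 1.77 to 2.20, 1.34 to 2.72 and 2.39 to 3.05.

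Within mice, the expanded share at 0.1% differed by 0.00592 points, the shared share by 1.38 at 30 nucleotides or less (call lost) and −5.46 weighted by templates, the rearrangements per CDR3 (log2) by 0.00267 at 30 nucleotides or less and 0.0125 without single-template rearrangements (both calls lost), and the productive share exceeded the out-of-frame one by 1.12 with a 33-nucleotide limit. On templates, 1 of 24 V genes of short rearrangements was called in the combination, as higher than in control. The share called over all V gene and length class entries was not kept for templates. This call is therefore not read as particular to short CDR3s.

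Single genes that changed direction were, on templates, Trbv3 (0.24), Trbv12-1 (0.53) and Trbv13-3 (−1.02); at 30 nucleotides or less, Trbv13-3 (−0.12), Trbv19 (0.070) and Trbj1-5 (0.033); with DESeq2, Trbj1-2 (0.36), Trbj1-5 (0.39), Trbj2-5 (0.49) and Trbj2-6 (3.20, with 0 short rearrangements); and with TMM, Trbj1-2 (0.32), Trbj1-5 (0.35) and Trbj2-5 (0.43). Trbv19 ran from −0.057 to 0.027 without 1 mouse at a time.

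Replicate numbers showed no clear pairing of the mice, which these few correlations cannot settle. Over 59 features, deviations of same-numbered mice correlated from −0.362 to 0.424. The mean was −0.113 for replicate 1 and 0.112 for replicate 4, whose pairs were all positive (0.0250 to 0.239). With the number as a block the template p-values were 0.0473, 0.0386 and 0.0129 in the ANT008, anti-PD-1 and combination comparisons by exact permutation, and of the unadjusted calls only that of the ANT008 unique share was lost.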

Other observations

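Trbj1-7, whose untrimmed end gives 10 nucleotides to the CDR3, was seen in 4 short rearrangements and in 0 of 36 to 48 nucleotides. With so few it was not tested.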
